A study of Mus musculus with 6 samples.

Results

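The targets of p53 and the DNA damage response were followed as 35 genes chosen by symbol, of 56884 genes counted in each library. All 35 symbols were found. They were placed in 5 groups by role: 4 genes for p53 and its regulators, 7 for arrest and the cell cycle, 11 for cell death, 6 for DNA repair and genome stability, and 7 for stress and metabolism. Organoids, cultures of crypt epithelium, were grown from the small intestine of mice with 3 engineered loci, Villin-CreERT2, Lgr5-EGFP-IRES-CreERT2 and Ythdf2 fl/fl. Organoids received ethanol (EtOH, the solvent) or 0.5 µM 4-hydroxytamoxifen (4-OHT, the ligand that activates CreERT2), and Lgr5-GFP+ cells were sorted at day 4 or day 6. There were 2 EtOH and 2 4-OHT libraries at day 6, and 1 of each at day 4. Every library carried the floxed *Ythdf2* and both CreERT2 transgenes, one driven by the Villin promoter of the intestinal epithelium and one placed in the *Lgr5* locus of stem cells. With no 4-OHT library lacking the floxed gene or the recombinase, 4-OHT itself, active Cre and recombination of *Ythdf2* cannot be told apart.

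The p53 protein is a transcription factor that is kept scarce by the ubiquitin ligase Mdm2 and is stabilised when kinases sense damaged DNA, so its activity is usually read from its target transcripts rather than from its own. The targets stop the cell cycle, trigger apoptosis, repair DNA or adjust metabolism, and *Mdm2* is itself a target, which closes a feedback loop. In the intestinal crypt, p53 and its targets are known for the response of dividing cells to irradiation, and active Cre recombinase is itself known to be able to cut genomic DNA.

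A sequence feature is shown first, because it is the DNA motif that p53 recognises. The genes were chosen as p53 targets, so their share with this motif is not independent of the choice. The form of the p53 site searched for was a pair of 10-base half-sites set end to end. Pairs with further bases between the half-sites were not searched. Both strands within 3 kb of each gene start in the GRCm39 genome were searched for 20 bases that match the consensus with at most 1 mismatch and with both core motifs intact. Such a match was present for 5 of the 35 genes (14.3%), against 95 of 12261 protein-coding genes tested (0.775%). The 5 are printed 5′ to 3′ on the strand of the gene, with the 20 matching bases in capitals and 5 flanking bases on each side.
Cdkn1a: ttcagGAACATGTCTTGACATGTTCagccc
Ccng1: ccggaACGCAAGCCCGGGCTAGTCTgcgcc
Gtse1: accggGAGCAAGTTGGGGCTTGCCTctgac
Zmat3: gtgagAAACAAGCCCAGGCATGTCTtggga
Rps27l: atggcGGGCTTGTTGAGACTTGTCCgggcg

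The *Cdkn1a* match is at chr17:29309902-29309921, outside the gene and centred 25 bases before its start. In this search a start is the outermost annotated upstream end of the gene, and single transcripts may start further in. The *Ccng1* match, chr11:40645763-40645782, and the *Rps27l* match, chr9:66853578-66853597, are intronic, 376 and 247 bases after the start. Those of *Gtse1*, chr15:85744146-85744165, and *Zmat3*, chr3:32418480-32418499, are in exons that are untranslated in the annotated transcripts, 550 and 1674 bases after the start. Only the *Zmat3* match had 0 mismatches; 16 of the 12261 genes had one so complete (0.13%). A single half-site in the 250 bases before the start, read from the RefSeq promoter table (GRCm38.p6), was found for 10 of the 28 genes in that table (35.7%) and for 2216 of its 27025 genes (8.2%). These matches describe sequence and show no binding in these cells.

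Libraries held 14345379 to 21461835 gene counts. *Ythdf2*, the gene the labels name, had levels of 82.8 and 76.0 CPM (counts scaled to a library of 1000000, after TMM scaling) in the EtOH libraries at day 6 and 208 and 204 CPM in those labelled 4-OHT, and 76.0 against 167 CPM at day 4. The gene was higher in all 3 libraries labelled 4-OHT, which goes against a loss of its transcript, so these are called by their labels throughout. The counts are per gene, so a loss limited to the floxed exons was not tested, nor was an exchange of labels, which would turn every treatment direction given here. Epithelial markers summed to 4660 to 7030 CPM per library, with all 5 detected, against 0.741 to 3.11 CPM for 5 haematopoietic markers. The 6 stem cell markers, *Lgr5* among them, were present in every library. Nothing says that replicates came from separate cultures or animals, so p-values measure only the spread between these libraries, which may be technical.

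Over both days, 5 of the 34 tested genes rose in the libraries labelled 4-OHT and none fell: *Trp53inp1*, *Cdkn1a*, *Perp*, *Fas* and *Dcxr*. They belong to 4 of the 5 role groups, with none in DNA repair and genome stability. The test was edgeR's quasi-likelihood test on 3 libraries against 3 with day as a term, at a Benjamini-Hochberg adjusted p under 0.05 over all 14060 genes. By that rule 4.39% of all genes were called, 3.67% higher and 0.718% lower. The 34 genes had a median log2 fold change of 0.30, against -0.01 for all genes, and 26 of 34 were above 0. At an unadjusted p under 0.05 there were 13, all higher, beside 16.1% of all genes in either direction, 10.3% higher and 5.79% lower. None of the 5 calls was made when either day 4 library was left out. The remaining day 4 library is then fitted exactly by the day term. Those fits thus take the treatment difference from the day 6 libraries alone and are no separate check. There were 3 calls without EtOH replicate 1 of day 6 or without either day 6 library labelled 4-OHT, and 12 without EtOH replicate 2.

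**Figure D1:**
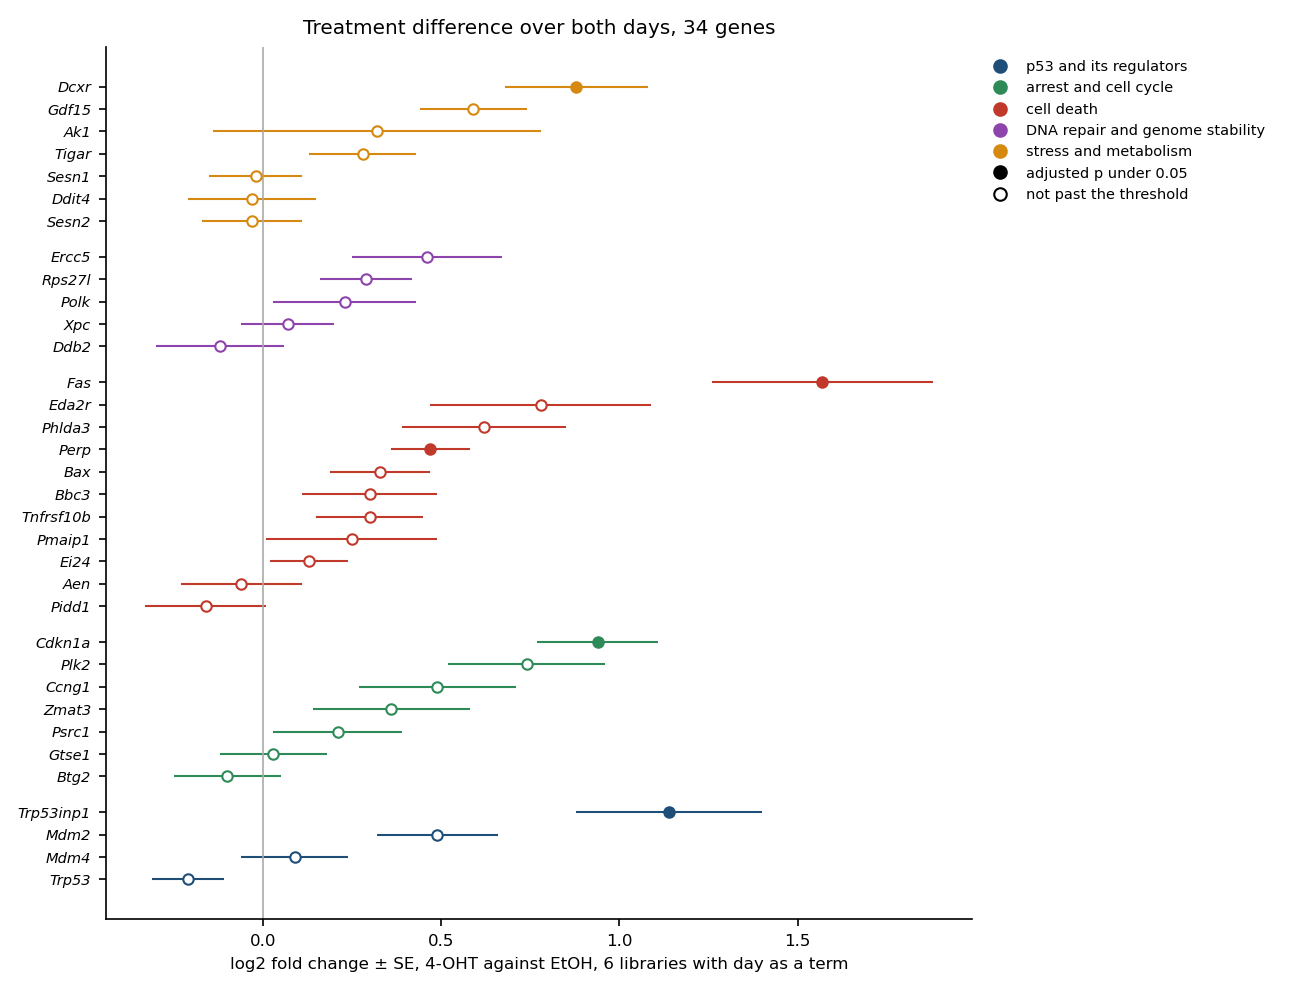
The log2 fold change of the libraries labelled 4-OHT against EtOH over both days for the 34 tested genes, by role, with bars of 1 standard error. Filled points passed an adjusted p under 0.05, and the 5 filled points all lie to the right of 0.

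The 2 days were also taken apart. At day 4, with 1 library per label and so no test, 30 of the 34 genes were higher in the library labelled 4-OHT, with a median log2 fold change of 0.58; of all genes, 49.9% were higher and the median was -0.00. A difference of at least 2-fold was reached by 10 of 34 upward and 0 downward, where 5.60% of all genes reached it upward and 2.20% downward. The 10 were *Trp53inp1*, *Cdkn1a*, *Ccng1*, *Plk2*, *Fas*, *Phlda3*, *Eda2r*, *Ercc5*, *Dcxr* and *Ak1*. At day 6, edgeR called 0 of 34 genes, beside 2.51% of all 14066 genes tested there, 2.27% higher and 0.235% lower. At an unadjusted p under 0.05 there were 5 genes, all higher, beside 10.3% of all genes, 7.54% higher and 2.79% lower. DESeq2 called 1 of the 34, *Cdkn1a*, beside 505 of all 14066 genes. The day 6 median was 0.13, against -0.01 for all genes, and leaving out EtOH replicate 1 gave -0.01 and leaving out EtOH replicate 2 gave 0.33. Both libraries labelled 4-OHT were above both EtOH libraries for 11 of 34 genes and below them for 5, where 20.3% and 18.3% of all genes did so.

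**Figure D2:**
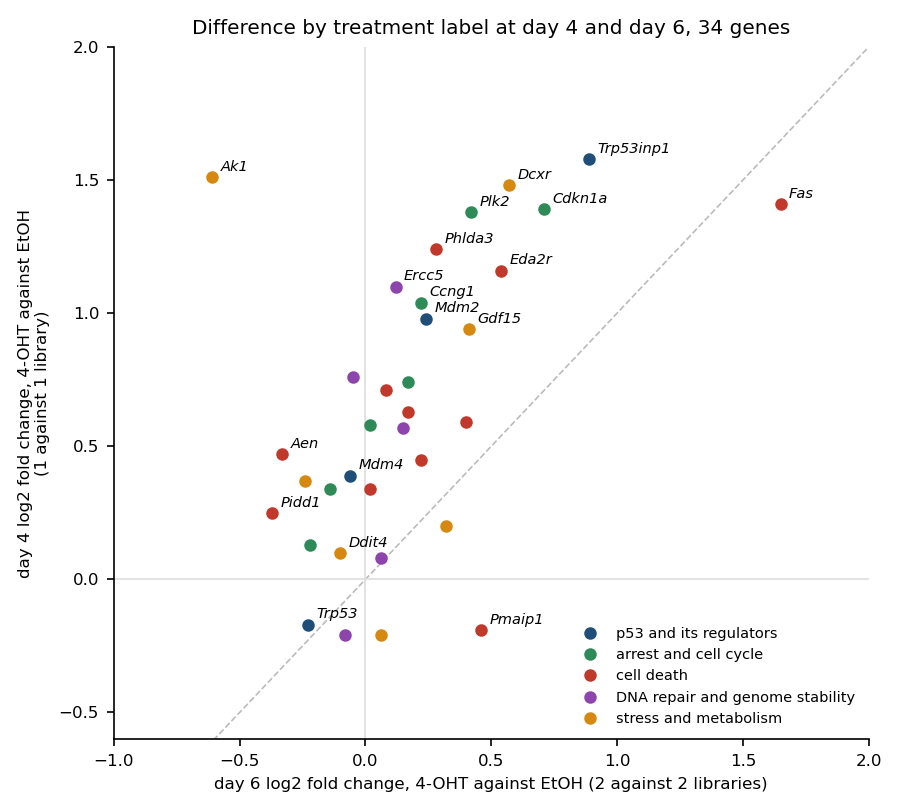
The log2 fold change of the libraries labelled 4-OHT against EtOH at day 4 (vertical axis, 1 library per label) and at day 6 (horizontal axis, 2 per label), 1 point per gene and coloured by role. The day 4 value was above the day 6 value for 29 of the 34 genes, and 21 were above 0 on both days.

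Among p53 and its regulators, 1 gene rose over both days, *Trp53inp1*, and the gene for p53 itself was at its lowest values under the 4-OHT label. *Trp53* (chromosome 11, 69469669 to 69482701) had 202 and 181 CPM in EtOH at day 6, 167 and 160 CPM in the libraries labelled 4-OHT, and 182 against 162 CPM at day 4. All 3 libraries labelled 4-OHT were below all 3 EtOH libraries, but the both-day log2 fold change was -0.21 (SE 0.10) and was not called (edgeR, adjusted p = 0.355). It was the 1 gene of the 34 with that pattern downward, which 9.02% of all genes showed. The neighbouring genes *Wrap53* and *Gm57392* together overlap 5.7% of its exon bases. The strand setting of the counts is not given in the sources used here.

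*Mdm2* (chromosome 10, 117524780 to 117546730), the ligase that marks p53 for destruction, had 48.0 and 60.6 CPM in EtOH at day 6 and 60.8 and 67.4 CPM in the libraries labelled 4-OHT. At day 4 it had 63.0 CPM in EtOH and 125 CPM under the 4-OHT label. The 4-OHT label was the higher one within each day, and the day 4 library carrying it stood above the other 5. The both-day log2 fold change was 0.49 (SE 0.17; edgeR, adjusted p = 0.17). *Mdm4*, the partner of Mdm2 that blocks p53's activation domain, had 119 and 168 CPM in EtOH and 146 and 129 CPM under the 4-OHT label at day 6, which overlap. Its day 4 libraries, 234 CPM in EtOH and 307 CPM under the 4-OHT label, were both above every day 6 library.

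*Trp53inp1* (chromosome 4, 11156412 to 11175230), a nuclear protein induced by stress that promotes p53 activity, had 11 and 22.8 CPM in EtOH at day 6 and 36.4 and 26.4 CPM in the libraries labelled 4-OHT. At day 4 it had 30.5 and 91.2 CPM, the latter the highest of the 6. Within each day the 4-OHT label was the higher one, although the EtOH library of day 4 was above 1 of the day 6 libraries labelled 4-OHT. The both-day log2 fold change was 1.14 (SE 0.26; edgeR, adjusted p = 0.0388). Its day 6 value of 0.89 (SE 0.32) became 0.46 when EtOH replicate 1 was left out and 1.51 when EtOH replicate 2 was.

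The arrest group held the largest median at day 4, 0.74, with 7 of 7 genes higher and 3 of them at least 2-fold. Over both days 1 of the 7 passed. *Cdkn1a* (ENSMUSG00000023067, chromosome 17, 29309936 to 29319701), which encodes the p21 inhibitor of cyclin-dependent kinases and is the best known arrest target, had 94.9 and 120 CPM in EtOH at day 6, a mean of 107 ± 17.7 CPM (SD, n = 2). The day 6 libraries labelled 4-OHT had 155 and 197 CPM, a mean of 176 ± 30.0 CPM (SD, n = 2). Day 4 gave 105 CPM in EtOH and 275 CPM under the 4-OHT label. All 3 libraries labelled 4-OHT were above all 3 EtOH libraries, and the EtOH libraries of the 2 days were alike in level. That pattern upward was shown by 6 of the 34 genes, where 11.1% of all genes showed it. The 6 were *Cdkn1a*, *Plk2*, *Perp*, *Fas*, *Dcxr* and *Xpc*, the last with a range of only 24.5 to 26.6 CPM. The both-day log2 fold change was 0.94 (SE 0.17; edgeR, adjusted p = 0.0121), and the day 6 value alone, 0.71 (SE 0.19), did not pass (edgeR, adjusted p = 0.0999). The noncoding *Dino* overlaps 8.3% of its exon bases, and reads of the 2 genes are not separable there without strand.

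*Plk2*, a polo-like kinase, had 21.6 and 31.7 CPM in EtOH at day 6, 36.5 and 34.7 CPM in the libraries labelled 4-OHT, and 25.9 against 67.6 CPM at day 4. Its 2 label groups did not overlap over the 6 libraries, but the both-day log2 fold change, 0.74 (SE 0.22), was not called (edgeR, adjusted p = 0.1). *Ccng1*, the cyclin G1 gene, had 143 and 246 CPM in EtOH at day 6, 227 and 226 CPM in the libraries labelled 4-OHT, and 215 against 443 CPM at day 4. Here the groups overlapped at day 6 because EtOH replicate 2 was the highest of the 4 libraries. *Zmat3*, an RNA-binding zinc finger protein, *Psrc1*, a spindle protein, *Gtse1*, a microtubule protein of late cell cycle, and *Btg2*, an antiproliferative cofactor, had day 4 log2 fold changes of 0.74, 0.58, 0.34 and 0.13. Their day 6 values were 0.17, 0.02, -0.14 and -0.22, and none passed over both days.

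In the death group, 10 of 11 genes were higher at day 4 under the 4-OHT label, 3 of them at least 2-fold, and 9 of 11 were higher at day 6. The 2 that rose over both days, *Fas* and *Perp*, encode membrane proteins. *Fas* (chromosome 19, 34268001 to 34305173), a death receptor, had 15 and 23 counts in EtOH at day 6, 79 and 55 counts under the 4-OHT label, and 41 against 85 counts at day 4. As CPM these were 0.794 and 1.33, 3.68 and 2.95, and 2.10 against 5.77, so that the label groups did not overlap but the level was low. The both-day log2 fold change was 1.57 (SE 0.31; edgeR, adjusted p = 0.0183). Scaled for depth, the day 4 ratio was 2.74 (exact 95% limits 1.87 and 4.09, which reflect counting error alone).

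*Perp* (chromosome 10, 18720715 to 18732821), a membrane protein of desmosomes that p53 can induce in dying cells, had 128 and 135 CPM in EtOH at day 6, 164 and 184 CPM in the libraries labelled 4-OHT, and 124 against 187 CPM at day 4. The label groups did not overlap, and the EtOH libraries lay close together across days. The both-day log2 fold change was 0.47 (SE 0.11; edgeR, adjusted p = 0.0385), the smallest of the 5 changes. Without the filter on low counts it was not called (edgeR, adjusted p = 0.0633, in a range of 0.00524 to 0.383 over 12 alternatives).

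*Phlda3*, an inhibitor of Akt signalling, had 14.4 and 22.1 CPM in EtOH at day 6, 22.3 and 22.0 CPM in the libraries labelled 4-OHT, and 24.0 against 56.9 CPM at day 4. *Eda2r*, a receptor of the tumour necrosis factor family, had 3.97 and 11.2 CPM in EtOH at day 6, 12 and 10 CPM in the libraries labelled 4-OHT, and 15.4 against 34.6 CPM at day 4. For both genes the day 4 library labelled 4-OHT stood above all others, and EtOH replicate 1 was the lowest. Without that replicate the day 6 log2 fold changes were 0.00 and -0.03. The pore-forming *Bax*, with 42.2 and 39.5 CPM in EtOH, 41.4 and 50.9 CPM under the 4-OHT label at day 6, and 46.3 against 71.7 CPM at day 4, overlapped at day 6. The other 6 death genes had day 4 log2 fold changes of -0.19 for *Pmaip1* (Noxa), 0.25 for *Pidd1* of the caspase-activating PIDDosome, 0.34 for *Ei24* of the endoplasmic reticulum, 0.45 for the death receptor *Tnfrsf10b*, 0.47 for the nuclease *Aen* and 0.71 for *Bbc3* (Puma). None of the 6 passed over both days.

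In the repair group no gene of the 5 tested was called over both days, and the median was 0.23. *Ercc5*, the endonuclease that cuts 3′ of a lesion in nucleotide excision repair, had 18.1 and 23.4 CPM in EtOH at day 6, 22.1 and 23.1 CPM in the libraries labelled 4-OHT, and 25.4 against 54.4 CPM at day 4. Only the day 4 library labelled 4-OHT stood apart. The damage recognition genes of the same pathway stayed near their EtOH level: *Xpc* ranged from 24.5 to 26.6 CPM over all 6 libraries, and *Ddb2* from 11.3 to 16.1 CPM. *Ddb2* shares 46.3% of its exon bases with other genes, so its counts are uncertain. *Polk*, a translesion polymerase, had 43.2 CPM in the day 4 library labelled 4-OHT and 16.6 to 25.5 CPM in the other 5.

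*Rps27l* is a p53 target and a paralogue of the ribosomal protein gene *Rps27*, so reads the pair share could be missing from its counts. It had 113 and 97.1 CPM in EtOH at day 6, 110 and 122 CPM in the libraries labelled 4-OHT, and 115 against 170 CPM at day 4. It overlapped at day 6, with a both-day log2 fold change of 0.29 (SE 0.13; edgeR, adjusted p = 0.297). *Zfp365* (chromosome 10, 67721933 to 67748580), a zinc finger gene linked to genome stability, was the 1 gene of the 35 that did not pass the filter on low counts. It had 1 and 0 counts in EtOH at day 6, 12 and 6 counts in the libraries labelled 4-OHT, and 4 against 66 counts at day 4. The day 4 ratio was 21.8 after scaling for depth (exact 95% limits 8.14 and 82.5). It was higher under the 4-OHT label on each day, at counts too low for the filter. Without the filter its both-day log2 fold change was 4.25 (SE 0.67; edgeR, adjusted p = 0.00208 over 31709 genes). That fit called 657 of the 31709 genes.

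In the stress and metabolism group 1 of 7 genes rose over both days. *Dcxr* (chromosome 11, 120616047 to 120618147), a reductase of the uronate cycle, had 21.1 and 23.8 CPM in EtOH at day 6 and 30.2 and 36.6 CPM in the libraries labelled 4-OHT. At day 4 it had 23.7 CPM in EtOH and 66.4 CPM under the 4-OHT label. The label groups did not overlap, and the both-day log2 fold change was 0.88 (SE 0.20; edgeR, adjusted p = 0.0333). *Gdf15*, a secreted stress cytokine, had 54.9 and 54.2 CPM in EtOH at day 6, 62.8 and 82.0 CPM in the libraries labelled 4-OHT, and 80.8 against 155 CPM at day 4. Within each day the 4-OHT label was higher, and the both-day log2 fold change of 0.59 (SE 0.15) missed the threshold (edgeR, adjusted p = 0.0597).

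*Ddit4*, an inhibitor of mTORC1 that hypoxia and glucocorticoids also induce, had the highest level of the 35 per length, a mean of 117 CPM per kilobase of exon. It had 291 and 324 CPM in EtOH at day 6, 210 and 368 CPM in the libraries labelled 4-OHT, and 341 against 365 CPM at day 4, so that the 2 replicates labelled 4-OHT spanned the EtOH libraries. The sestrins, which also restrain mTORC1, and *Tigar*, a phosphatase that diverts sugar from glycolysis, gave both-day log2 fold changes of -0.02 (*Sesn1*), -0.03 (*Sesn2*) and 0.28 (*Tigar*), none past the threshold. *Ak1*, an adenylate kinase at 18 to 87 counts per library, had a day 4 ratio of 2.95 scaled for depth (exact 95% limits 2 and 4.43) and a day 6 log2 fold change of -0.61 (SE 0.47).

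**Figure D3:**
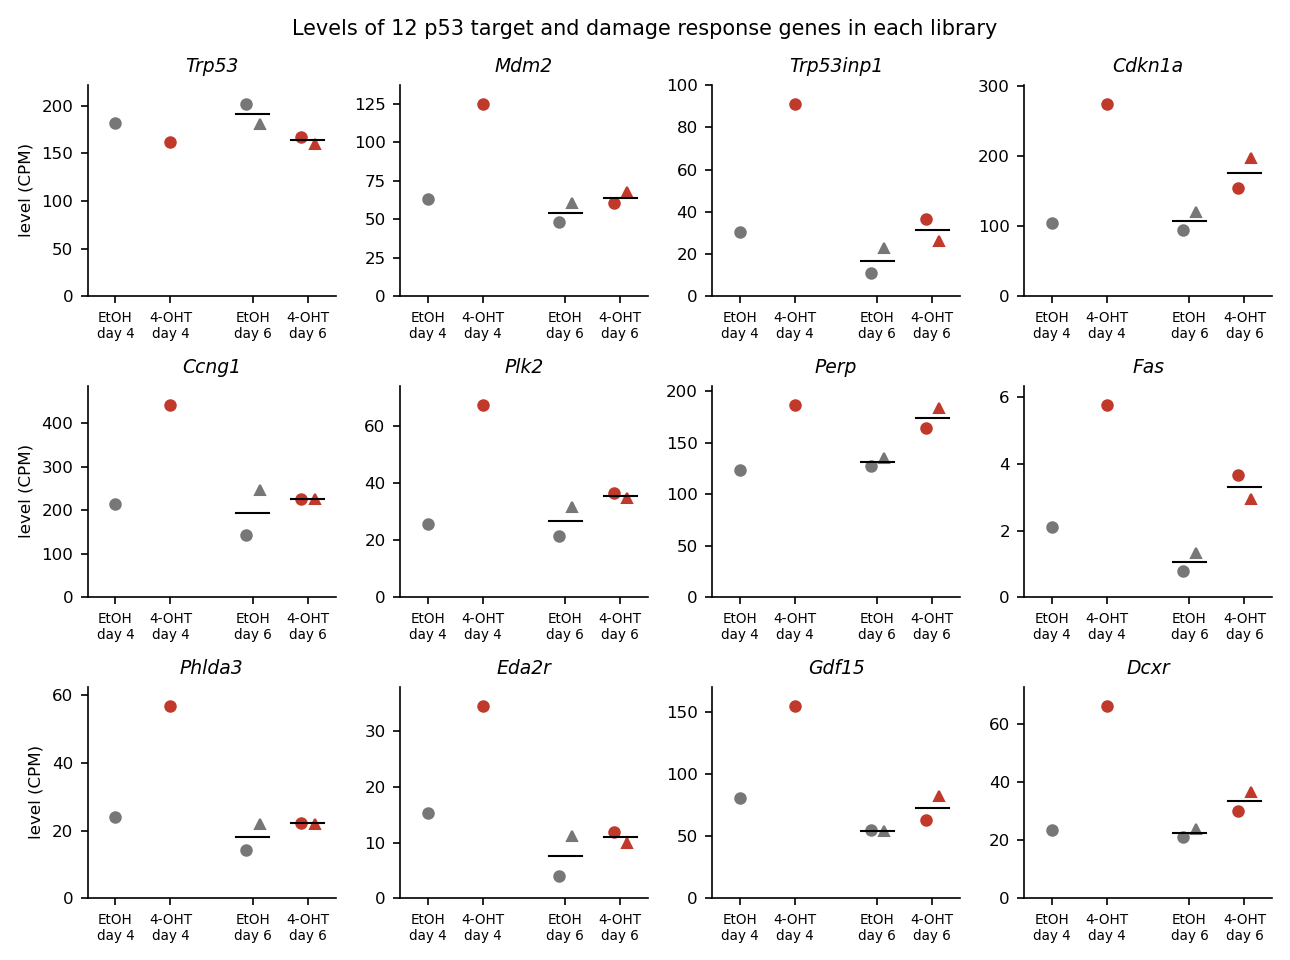
CPM of 12 genes in the 6 libraries, each panel on its own linear axis from 0, with EtOH in grey, the 4-OHT label in red, circles for replicate 1, triangles for replicate 2 and a bar at the mean of the 2 day 6 replicates. *Cdkn1a* reached 275 CPM in the day 4 library labelled 4-OHT against 94.9 to 120 CPM in the 3 EtOH libraries, while *Trp53* lay between 160 and 202 CPM in all 6.

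Libraries at both ends stood apart. The day 4 library labelled 4-OHT was the highest of the 6 for 28 of the 34 genes (82.4%), against 15.8% of all genes. EtOH replicate 1 of day 6 was the lowest for 18 of 34 (52.9%), against 24.9% of all genes. Between the EtOH replicates of day 6, replicate 2 was the higher for 25 of 34 genes with a median log2 difference of 0.30, where all genes had -0.01. Between the 2 replicates labelled 4-OHT the median difference was 0.05. The gap between the EtOH replicates was thus larger than the day 6 treatment median of 0.13.

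As a median of log2 levels relative to each gene's mean, the 34 genes stood at -0.47 and -0.07 in the EtOH libraries of day 6, -0.12 and -0.08 in those labelled 4-OHT, and 0.05 against 0.73 at day 4. The same median over all genes lay between 0.00 and 0.01 in every library. By role, the day 4 library labelled 4-OHT stood at 0.90 for arrest, 0.86 for p53 and its regulators, 0.65 for stress and metabolism, 0.59 for death and 0.51 for repair. The 5 role groups thus shared their highest library.

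**Figure D4:**
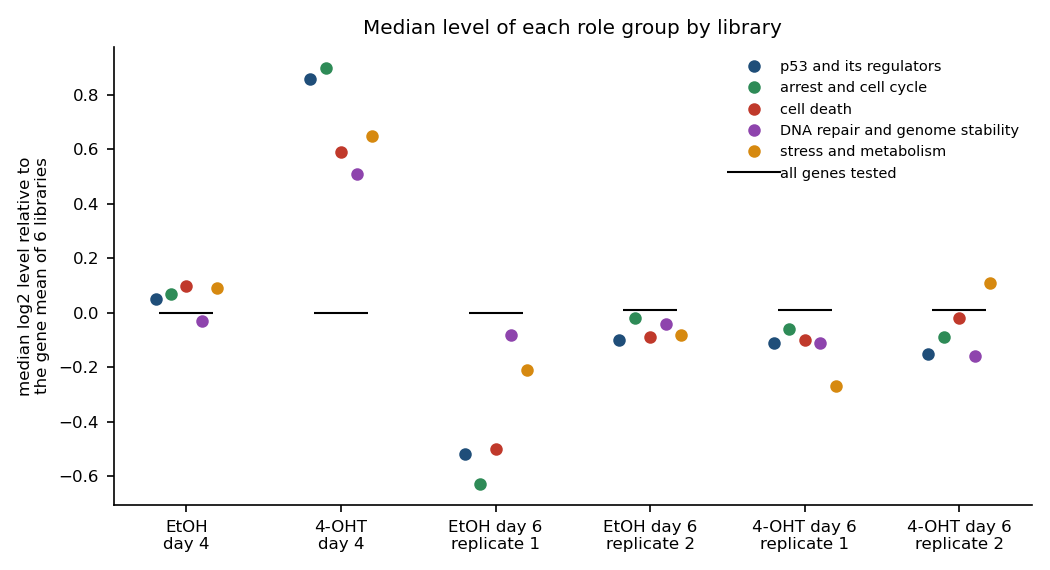
The median log2 level relative to each gene's mean over the 6 libraries, by role group and library. The day 4 library labelled 4-OHT is the highest for every role group, from 0.51 to 0.90, and EtOH replicate 1 of day 6 is the lowest for the arrest genes at -0.63.

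Between days, with the treatment label held, the genes were lower at day 6: 30 of 34 had a negative log2 fold change, with a median of -0.56 against 0.02 for all genes. *Mdm4*, at -0.94 (SE 0.16; edgeR, adjusted p = 0.0389), and *Gdf15*, at -0.84 (SE 0.15; edgeR, adjusted p = 0.0495), fell past the threshold. That was 2 of 34, beside 0.562% of all genes in either direction, 0.327% higher and 0.235% lower. At an unadjusted p under 0.05 there were 21, all lower, beside 12.6% of all genes, 6.02% higher and 6.54% lower. The count depended on the libraries: 0 calls were made within the EtOH libraries alone, within the libraries labelled 4-OHT alone, or without either day 4 library or either day 6 library labelled 4-OHT, 1 without EtOH replicate 1, and 17 without EtOH replicate 2. Leaving out a day 4 library takes the day difference from the other label alone, so those settings nearly repeat the single-label ones. All 4 day 6 libraries were below both day 4 libraries for 12 genes and above both for 1, where 9.97% and 9.99% of all genes were. The median was -0.20 within the EtOH libraries and -0.86 within those labelled 4-OHT. Day cannot be told apart from whatever else differed between these libraries. The summary lines for entries not assigned to a single gene held 26.7% and 25.0% at day 4 against 19.3% to 21% at day 6. Among them, unmapped reads were 10.32% and 8.32% of entries against 5.01% to 6.74%, and reads on no annotated feature 6.19% and 6.7% against 2.63% to 3.76%. Genes with at least 1 count numbered 26521 and 24195 at day 4 and 19522 to 20622 at day 6. The part of these differences in the result was not tested.

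Whether the treatment difference itself changed with day was tested by the interaction, the day 6 difference minus the day 4 difference. EdgeR called 0 of the 34 genes and 0% of all genes, and DESeq2 called 0 of the 34. At an unadjusted p under 0.05 there were 7, *Mdm2*, *Plk2*, *Aen*, *Phlda3*, *Ercc5*, *Dcxr* and *Ak1*, all with the lower log2 fold change at day 6. Of all genes, 1.62% were so in either direction, 0.704% higher and 0.917% lower. Of these 7, *Aen* and *Ak1* turned, from 0.47 and 1.51 at day 4 to -0.33 and -0.61 at day 6. Among all 34 genes, 9 were higher at day 4 and lower at day 6, and 2 were lower at day 4 and higher at day 6. The interaction values of the 7 ran from -0.74 (SE 0.31) for *Mdm2* to -2.17 (SE 0.72) for *Ak1*. The median was -0.54 over the 34 genes and -0.00 over all genes, and 29 of 34 were negative. The day 4 groups had 1 library each and were assumed to vary like the day 6 libraries.

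Among the genes that sense damage and repair DNA, none passed over both days. Of 21 damage sensors and checkpoint kinases, such as *Atm* and *Chek1*, edgeR and DESeq2 each called 0, with 4 of 21 at an unadjusted p under 0.05 in edgeR, all lower, beside 16.1% of all genes in either direction and 5.79% lower. Their median was -0.08, with 1 of 21 above 0 where 48.6% of all genes were, and *H2ax*, named after its values were seen, had -0.53. Of 21 break repair genes both tools called 0, with 2 at an unadjusted p under 0.05 in edgeR, both lower. Their median was -0.20, and 3 of 21 were above 0. Of 18 excision repair genes both tools called 0, with 0 at an unadjusted p under 0.05 in edgeR and a median of 0.01. Of 20 other p53 targets, 17 were tested, and their median was 0.09. DESeq2 called 4 of the 17, beside 856 of all 14060 genes, where edgeR called 617.

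Among these other targets *Pltp*, a lipid transfer protein, rose. It had 0.159 and 0.058 CPM in EtOH, 1.12 and 1.12 CPM under the 4-OHT label at day 6, and 0.359 against 1.29 CPM at day 4 (log2 fold change 2.57, SE 0.56; edgeR, adjusted p = 0.027). *Sesn3*, the third sestrin, fell, with 71.9 and 71.2 CPM in EtOH at day 6, 50.7 and 32.7 CPM in the libraries labelled 4-OHT, and 66.7 against 47.1 CPM at day 4 (log2 fold change -0.69, SE 0.16; edgeR, adjusted p = 0.0451).

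Of 14 upstream genes and other inhibitors of cyclin-dependent kinases, 11 were tested and *Cdkn2b* (p15) rose, with 15.9 and 15.9 CPM in EtOH, 29.5 and 35.1 CPM under the 4-OHT label at day 6, and 11.3 against 13.9 CPM at day 4. Its both-day log2 fold change was 0.80 (SE 0.18; edgeR, adjusted p = 0.038), and it passed at day 6 alone at 1.02 (SE 0.21; edgeR, adjusted p = 0.0323). DESeq2 called 1 of the 11, beside 856 of all 14060 genes. Of 16 apoptosis genes *Bcl2l1* rose by 0.67 on the log2 scale (SE 0.13; edgeR, adjusted p = 0.0175), 1 call of 16 beside 4.39% of all genes. DESeq2 called 3 of the 16, beside the same 856 genes. *Bcl2l1* encodes Bcl-xL, which protects from apoptosis.

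Markers of other intestinal cell types moved with the treatment label. The 10 enterocyte markers summed to 776 and 790 CPM in EtOH at day 6 and 3210 and 2670 CPM in the libraries labelled 4-OHT, and to 484 against 1140 CPM at day 4. Stem cell markers summed to 5610 and 5280 against 3550 and 3370 CPM at day 6 and to 4650 against 3920 CPM at day 4. The enterocyte sum was higher and the stem cell sum lower under the 4-OHT label on each day. All 10 enterocyte markers were higher on each day. Of the 6 stem cell markers, 4 were lower and 2 higher at day 4, and 5 were lower and 1 higher at day 6. *Ascl2* was higher on both days, with log2 fold changes of 0.87 and 0.14. *Olfm4* had 3300 and 2240 against 1320 and 984 CPM at day 6, and 1480 against 864 CPM at day 4. The 6 Paneth markers summed to 2800 and 2010 CPM in EtOH and 4900 and 2010 CPM under the 4-OHT label at day 6, and to 395 against 1650 CPM at day 4. The 6 enteroendocrine markers summed to 425 and 361 CPM in EtOH and 682 and 361 CPM under the 4-OHT label at day 6, and to 56.0 against 267 CPM at day 4. Both lists, like the p53 targets, thus had their larger difference at day 4, with median log2 fold changes of 2.09 and 2.13 there against 0.65 and 0.34 at day 6. Their interaction medians were -1.53 and -1.63, with 5 of 6 and 4 of 6 at an unadjusted p under 0.05 in edgeR, beside 1.62% of all genes. Of all 14060 genes, edgeR called 0 in that test and DESeq2 called 6. The part of these cell type markers in the results was not tested. The 6 goblet markers summed to 3050 and 3270 CPM in EtOH and 2660 and 2440 CPM under the 4-OHT label at day 6. At day 4 they summed to 1950 against 2250 CPM. At day 6, 4 of the 6 were higher, and edgeR called 2, *Clca1* and *Zg16*, beside 2.27% of all genes. Tuft markers, with *Il25* at 0 in all 6 libraries, summed to 31.1 and 18.5 against 9.44 and 8.25 CPM at day 6. Their day 4 sums were 9.74 against 6.72 CPM. All 4 tested tuft markers were lower at day 6, and edgeR called 1, *Dclk1*, beside 0.235% of all genes. The 7 proliferation markers summed to 1940 and 1910 CPM in EtOH and 1800 and 1640 CPM under the 4-OHT label at day 6, and to 2180 against 1810 CPM at day 4. In bulk RNA, fewer cells of a type and less RNA per cell cannot be told apart.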

How the data were processed

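Each of the 6 deposited files holds whole-number counts for 56884 genes in 1 library, not normalized, after 4 summary lines. These lines count reads not assigned to a single gene: unmapped, multimapping, on no annotated feature or ambiguous. Those lines held 19.3% to 26.7% of entries and stayed out of totals and tests. STAR and the mm39 build are named per the submitters' processing notes; annotation release and strand setting are not given in the sources used here. Symbols, coordinates and exon overlaps came from GENCODE M39 of GRCm39, which matched 56323 identifiers holding 99.96% of counts.

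The 35 genes, their roles and the other lists were chosen with earlier results of these data known. Counts were tested with edgeR 4.0.16 in R 4.3.3 (glmQLFit with legacy set to false, TMM scaling, filterByExpr with a minimum count of 10, Benjamini-Hochberg adjustment over all genes), on 4 libraries at day 6 and on 6 with day as a term. The day and interaction tests used all 6. Standard errors are the log2 fold change divided by the root of F. Day 4 fold changes used a prior count of 2, with no test. CPM are gene counts scaled to a library of 1000000 after TMM scaling.

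Values in every library were given for *Trp53*, *Mdm2* and *Cdkn1a*, for genes past an adjusted p in any test or an unadjusted p of 0.05 in either treatment test, and for the highest level and the largest change in each role group. The scripts were tested on simulated counts. Replicates differed by more than sampling noise (chi-square per degree of freedom 33.2 and 22.9) and were kept apart. Alternatives were DESeq2 1.42.0, other scaling and filters, a replicate block and leaving out each library. One result from the list of other p53 targets is not reported here.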

Additional observations from a re-analysis of the deposited data

How the results depend on the processing

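In the day 6 test, 0 of the 34 genes were called. DESeq2 called 1, *Cdkn1a* (505 of all genes in place of 353), and leaving out 1 library gave 0 to 1. The labels do not pair the replicates; with the replicate number as a block, edgeR called 3 at day 6, *Trp53inp1*, *Cdkn1a* and *Fas*, and 839 of all genes in place of 353.

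In the both-day test, 5 of the 34 were called, and 1 without the day term (361 of all genes in place of 617). DESeq2 called 7 (856 of all genes), and leaving out 1 library gave 0 to 12. Between days, 2 were called, 6 without the filter (182 of all genes in place of 79), 11 by DESeq2 (318), 0 with edgeR's legacy dispersion (50), 0 in EtOH libraries alone (12), 0 in those labelled 4-OHT alone (34), and 0 to 17 when 1 library was left out. The interaction had 0 calls among the 34 in every setting; leaving out 1 library moved its genes at an unadjusted p under 0.05 from 7 to between 1 and 17. Over all genes, leaving out 1 library gave 99 to 409 calls at day 6, 361 to 699 over both days, 12 to 559 between days and 0 to 13 in the interaction, where DESeq2 called 6. Without a day 4 library, the both-day test rested on the day 6 libraries alone. The day 4 count of 10 did not move. The legacy dispersion and the day 6 tests on 3 libraries were chosen after seeing the data.

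Some directions turned. At day 6, leaving out 1 library gave -0.03 to 1.46 for *Eda2r*, -0.12 to 0.66 for *Ccng1*, -0.05 to 0.31 for *Ercc5*, -0.29 to 0.21 for *Mdm4* and -0.55 to 0.26 for *Ddit4*. In the both-day test *Mdm4* gave -0.00 without EtOH replicate 1 of day 6 and -0.06 without either day 4 library, and *Ddit4* gave 0.03 and 0.19 without EtOH replicate 2 and without replicate 1 labelled 4-OHT, in a range of -0.27 to 0.19. Between days, *Cdkn1a*, *Plk2* and *Perp* gave 0.03, 0.04 and 0.08 in EtOH libraries alone and 0.02, 0.03 and 0.08 without the day 4 library labelled 4-OHT; *Perp* gave 0.04 without day 6 replicate 1 labelled 4-OHT. The fit in EtOH libraries alone and the fit without the day 4 library labelled 4-OHT both take the day difference from EtOH libraries. Without the EtOH library of day 4, *Cdkn1a*, *Plk2* and *Perp* were lowest, at -0.64, -0.93 and -0.10. In the interaction, leaving out 1 day 6 library gave -0.15 to 0.03 for *Trp53*, -0.14 to 0.58 for *Fas*, -1.19 to 0.28 for *Eda2r* and -0.67 to 0.17 for *Ddit4*. The cause was not tested. With 2 libraries per label at day 6 and 1 at day 4, replicate spread limits most of these values, and low counts limit *Fas*, *Ak1* and *Zfp365*.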
